A study of Homo sapiens with 8 samples.

Results

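Histone genes were measured in 786-O cells by 81 probe sets for 59 genes, out of 44942 probe sets and 17014 singly named genes on the Affymetrix expression arrays of 2 types that the series used. A probe set was a member when its annotation listed exactly 1 gene symbol and that symbol named a histone of the H1, H2A, H2B, H3 or H4 gene clusters, another H1 gene, or the variants H2A.Z, H2AX or H3-3B. The rule used the annotation and no measured value, although it was set with earlier results of these data known. The first array type held 69 of the probe sets (55 genes) and the second 12 (9 genes), with 5 genes and no probe set in common. Of the 59 genes, 52 were replication-dependent, 49 of them on chromosome 6 (GRCh38.p14, chr6:25726777-27893891) and 3 on chromosome 1, and 7 were variant genes spread over 6 chromosomes. Probe sets that listed several symbols (10 and 1 for the types in turn) were not members.

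786-O is an established human renal cell carcinoma line. The cells were exposed for 6 h to 25 μM pentamidine, an aromatic diamidine known to sit in the minor groove at runs of A and T, or to its vehicle DMSO, and each array type carried 2 DMSO and 2 pentamidine arrays of total RNA. All groups shared the line, the medium with fetal bovine serum and the exposure time, and the result is that of 1 cell line. The labels speak of biological duplicates and do not say whether the second array type carried the same RNA as the first, so the types were compared apart.

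Nucleosomes wrap DNA around an octamer of H2A, H2B, H3 and H4, and linker histone H1 binds where the DNA enters and leaves. Replication-dependent histone genes lie in clusters, lack introns and are transcribed mainly in S phase; their mRNAs usually end in a stem-loop that SLBP binds, without a poly(A) tail. Variant histones such as H2A.Z and H3-3B are made throughout the cell cycle from spliced, polyadenylated mRNAs. Expression array labelling of this kind primes on poly(A), so that replication-dependent transcripts are measured mostly through those copies that carry a tail.

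The promoters of both classes are shown because pentamidine is a ligand of AT-rich DNA and because the classes differ in sequence. The 5 genes were picked as follows. H4C4 and H2BC21 had the lowest unadjusted p among tested replication-dependent genes of the first array type. H2BC6 is an H2B gene above the array median on all 4 arrays there, whose groups did not overlap. H3-3B and H2AZ2 are brightly measured variants. Each run is 300 bases from RefSeq (GRCh38.p14), 250 before and 50 after the annotated start, on the gene's strand from 5′ to 3′. Capitals mark the octamer ATTTGCAT, the TATA motif TATAAA and CCAAT, each searched on both strands.
H2BC21, chr1:149886633-149886932, minus strand: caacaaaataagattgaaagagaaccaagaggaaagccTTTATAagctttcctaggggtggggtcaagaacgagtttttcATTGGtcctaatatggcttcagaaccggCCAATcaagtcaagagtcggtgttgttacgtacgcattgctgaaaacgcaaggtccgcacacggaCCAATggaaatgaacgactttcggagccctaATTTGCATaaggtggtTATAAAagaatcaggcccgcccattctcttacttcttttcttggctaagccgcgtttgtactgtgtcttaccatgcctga
H2BC6, chr6:26183511-26183810, plus strand: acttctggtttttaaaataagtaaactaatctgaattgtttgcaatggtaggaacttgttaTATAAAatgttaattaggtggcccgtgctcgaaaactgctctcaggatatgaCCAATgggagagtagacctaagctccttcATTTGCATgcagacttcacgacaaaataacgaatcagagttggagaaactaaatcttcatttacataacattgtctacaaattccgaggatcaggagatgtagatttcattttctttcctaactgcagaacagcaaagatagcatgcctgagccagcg
H4C4, chr6:26189063-26189362, minus strand: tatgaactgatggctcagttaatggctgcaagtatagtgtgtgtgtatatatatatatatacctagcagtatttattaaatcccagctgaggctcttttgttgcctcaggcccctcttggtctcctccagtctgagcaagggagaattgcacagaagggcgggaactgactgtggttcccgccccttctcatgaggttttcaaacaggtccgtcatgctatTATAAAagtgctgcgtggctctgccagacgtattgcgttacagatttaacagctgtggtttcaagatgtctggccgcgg
H3-3B, chr17:75779730-75780029, minus strand: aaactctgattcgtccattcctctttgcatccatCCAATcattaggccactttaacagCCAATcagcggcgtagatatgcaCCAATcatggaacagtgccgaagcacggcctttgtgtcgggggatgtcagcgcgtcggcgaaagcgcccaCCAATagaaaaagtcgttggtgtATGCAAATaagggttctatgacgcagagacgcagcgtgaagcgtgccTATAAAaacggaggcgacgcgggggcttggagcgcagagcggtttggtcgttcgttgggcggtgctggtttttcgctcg
H2AZ2, chr7:44848038-44848337, minus strand: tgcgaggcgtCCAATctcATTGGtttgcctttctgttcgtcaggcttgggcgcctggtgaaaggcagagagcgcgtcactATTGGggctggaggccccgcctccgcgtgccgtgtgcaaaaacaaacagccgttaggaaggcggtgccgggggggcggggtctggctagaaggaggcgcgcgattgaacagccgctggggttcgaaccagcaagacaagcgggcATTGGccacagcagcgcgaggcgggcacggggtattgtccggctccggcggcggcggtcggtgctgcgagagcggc

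Promoter windows were found for 54 of the 59 genes, 57 windows in all; H1-9P, H3C11, H3C12, H4C1 and H4C3 were not matched. The 51 replication-dependent windows had a median AT content of 57.3% (42.0% to 63.7%), against 38.3% in the 6 variant windows (31.3% to 56.0%) and 41.3% over all 35116 windows of the table. The octamer ATTTGCAT, the site known for OCT1 (POU2F1) in H2B promoters, was in 14 of 18 H2B windows, 7 of 11 H2A windows, 1 of 8 H3 windows and no replication-dependent H1 or H4 window, against 1.77% of all windows. It was also in 1 of 6 variant windows, that of H3-3B. The H3 window was one of H3C4 that shares 278 bases with H2BC7. The 18 H2B windows came from 16 genes, so nearly identical windows of a gene were counted apart. TATAAA was in 34 of 51 replication-dependent windows and 4 of 6 variant windows (11.5% of all), and CCAAT in 46 and 5 (34.6% of all). AATT, a run of the kind that pentamidine binds, was in 47 of 51 and 2 of 6 windows (45.8% of all; it can overlap CCAAT and the octamer by letters). Among the members, 8 pairs of genes on opposite strands shared part of a window, and 7 of these were an H2A gene facing an H2B gene, so that 1 octamer can be counted for both. A match of letters is a description and does not show that a factor binds.

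**Figure D1:**
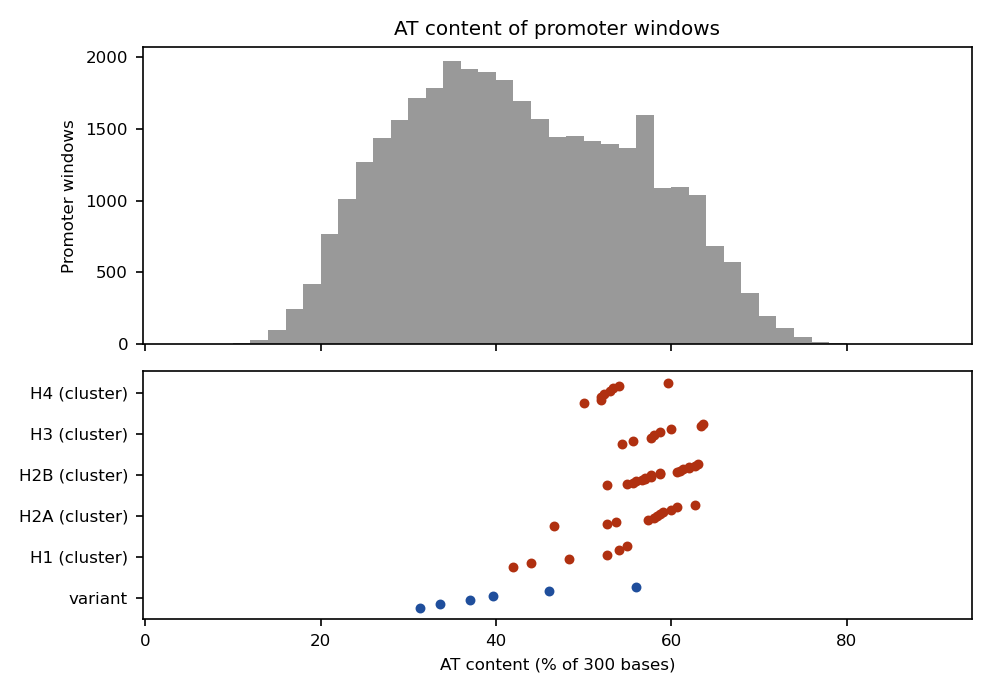
AT content (% of 300 bases, x axis) of promoter windows: the upper panel is a histogram of the number of windows over all 35116 windows, and each point in the lower panel is 1 histone window (blue, variant; red, replication-dependent genes by family). The replication-dependent medians by family lie between 50.5% (H1) and 58.3% (H2A and H3), above the variant median of 38.3%.

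The identity of the cells was checked on the first array type, where all 9 markers listed for this line were tested, with 4 above and 5 below DMSO and 0 called. PAX8, the renal lineage transcription factor, measured 2097 and 1827 intensity units with DMSO and 1917 and 1836 with pentamidine, and EPAS1, which encodes HIF-2 alpha, 4329 and 3882 against 4050 and 4079. LHX1, a kidney developmental factor, was dim and higher with pentamidine, at 36.3 and 37.5 against 63.7 and 75.3 (log2 fold change 0.69, limma adjusted p = 0.930). PAX2 was also dim, at 87.2 and 41.8 with DMSO and 36.4 and 40.8 with pentamidine (-0.50). No leukocyte (3 on the array) or endothelial (4) marker passed the filter on low values, and 2 of 4 stromal and 2 of 4 erythroid markers did. Of the stromal markers, LUM was bright, at 1152 and 1041 with DMSO and 1038 and 1039 with pentamidine. The other, DCN, measured 48.9 and 49.4 against 39.7 and 43.6. The array medians were 75.6 to 88.2 units for the first type, highest for pentamidine array 1, and 135 to 164 for the second. The precision of every value is limited by the number of arrays, 2 per group. With 2 against 2 a two-sided exact permutation test cannot go below p = 0.333, so each probe set was tested only in limma's fit across all probe sets of its array type, on log2(intensity + 16), which understates the change of dim probe sets.

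The first comparison asked, for the first array type, whether histone transcripts differed with pentamidine. No histone probe set passed an adjusted p of 0.05: of 41 tested, 0 were called, as over all 15550 tested (0%), with limma adjusted p values from 0.930 to 0.999. The 14 variant probe sets were split, 7 above and 7 below DMSO, with log2 fold changes from -0.31 to 0.28. The 27 tested replication-dependent probe sets had 18 above and 9 below, with values from -0.44 to 1.49, and 3 of them (0 variant) reached an unadjusted p under 0.05, all above DMSO, against 3.14% of all probe sets above, 1.69% below and 4.84% in either direction; the count of 3 was 5 without DMSO array 2 and 7 without pentamidine array 2, where the share of all probe sets in either direction was 8.37% and 7.10%. H4C4, among these 3, passed the filter on low values through its pentamidine mean alone. A filter on mean log2 value, added after the data were seen, gave a count of 4, beside 4.8% of all probe sets. It let in H2AC25, which lay below DMSO (limma unadjusted p = 0.0064), so the single direction of the 3 depended on the filter. Non-overlapping groups were found for 8 histone probe sets above DMSO and 6 below, against 19.5% and 15.6% of all probe sets.

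The brightest members were variants, and none of them was called. H2AZ1 encodes H2A.Z, which sits at promoters around the transcription start. Its probe set 213911_s_at measured 11874 and 8693 units with DMSO and 10540 and 10387 with pentamidine. The pentamidine arrays lay between the DMSO arrays (log2 fold change 0.042, 95% interval -0.53 to 0.61, n = 2 per group in limma). The other, 200853_at, measured 8226 and 7180 with DMSO and 7808 and 7460 with pentamidine (-0.010, -0.45 to 0.43), again inside the DMSO range.

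H2AZ2 encodes a second H2A.Z protein. Its probe set 212205_at measured 3510 and 3146 units with DMSO and 3244 and 3160 with pentamidine (log2 fold change -0.053, 95% interval -0.48 to 0.37). Probe set 202487_s_at measured 2126 and 2415 with DMSO and 2504 and 2193 with pentamidine (0.048, -0.42 to 0.51), so both overlapped. The third, 212206_s_at, measured 878 and 742 with DMSO and 617 and 697 with pentamidine, with both pentamidine arrays lower (-0.29, -0.77 to 0.19). The 3 probe sets thus gave 2 values near 0 and 1 below, and none passed. The second array type had a further H2AZ2 probe set, 227085_at, which measured 4405 and 4620 with DMSO and 4490 and 4879 with pentamidine, with overlapping groups (0.053, -0.79 to 0.90).

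H3-3B encodes the replacement histone H3-3, which is put into chromatin independently of replication. Its 4 probe sets did not point one way. Probe set 211997_x_at measured 8299 and 8414 units with DMSO and 10469 and 9825 with pentamidine, so that both pentamidine arrays were higher, by 21.4% in the mean. Its log2 fold change was 0.28 (95% interval -0.13 to 0.69, limma adjusted p = 0.930). In a limma fit with a variance trend the interval was 0.080 to 0.48, with an unadjusted p of 0.0095 and an adjusted p of 0.888. Of all probe sets, 5.17% had an unadjusted p under 0.05 in that fit. Probe sets 211999_at (8683 and 8212 against 8973 and 8458) and 209069_s_at (5967 and 6479 against 6780 and 6358) overlapped, with log2 fold changes of 0.045 and 0.078. The dimmest, 211998_at, measured 644 and 472 with DMSO and 420 and 465 with pentamidine, below DMSO (-0.31, -0.89 to 0.27), and -0.091 without DMSO array 1 and -0.53 without DMSO array 2. The suffix x_at means that the maker marks the probes as shared with other transcripts.

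H2AX, whose phosphorylated form marks DNA breaks, had 4 probe sets with overlapping groups. Its brightest, 205436_s_at, measured 1865 and 2040 units with DMSO and 1849 and 1989 with pentamidine (log2 fold change -0.024, 95% interval -0.45 to 0.40). Probe set 212525_s_at measured 66.4 and 134 with DMSO and 115 and 119 with pentamidine (0.26, -0.62 to 1.14). DMSO array 1 alone was low there. The 213344_s_at values were 56.4 and 62.1 against 53.7 and 67.5, and those of 212524_x_at 22.1 and 22.3 against 32.9 and 12.9, with log2 fold changes of 0.020 and -0.022. H1-10, a linker histone that does not depend on replication, measured 181 and 192 with DMSO and 151 and 185 with pentamidine, which overlapped (-0.14, -0.61 to 0.33).

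**Figure D2:**
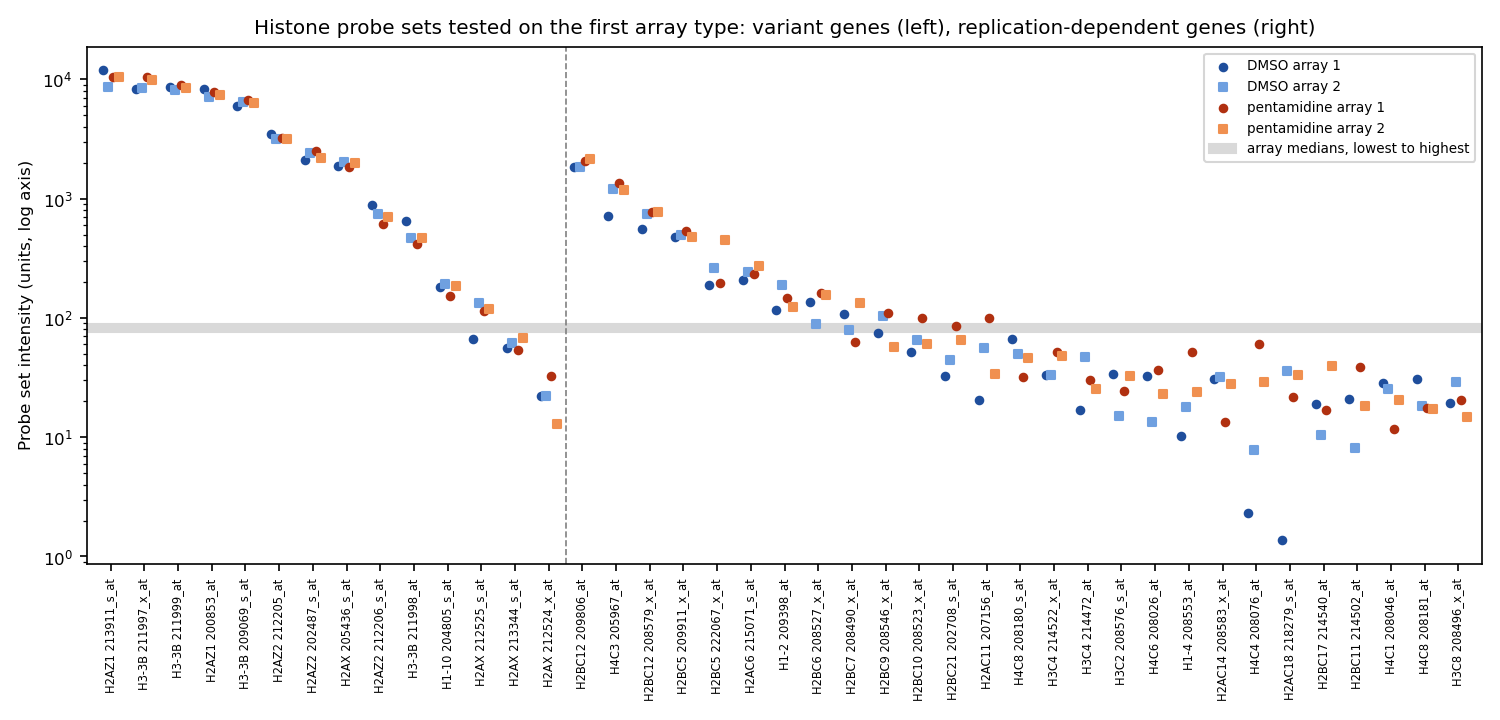
Intensity (units, log axis) of each of the 41 histone probe sets tested on the first array type, with 1 point per array (blue, DMSO; red and orange, pentamidine) and the range of the array medians as a grey band. Variant probe sets stand to the left of the dashed line, and 11 of 14 lie above the array median on all 4 arrays; the tested replication-dependent probe sets stand to the right and most lie near or under the band, where the 4 points spread widely.

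Replication-dependent probe sets were mostly dim. Of 55, only 8 lay above the array median on all 4 arrays and 43 on none, while 11 of 14 variant probe sets did and 2 did not on any. Probe sets differ in how they bind, so this describes how well each class was measured and not the amount of transcript. The filter, a mean intensity of at least 20.8 units, left 27 probe sets of 23 genes. Of the 27, 18 had both group means over that cutoff, 5 passed through the pentamidine mean alone (H1-4, H2AC18, H2BC11, H2BC17 and H4C4) and 4 through the DMSO mean alone (H2AC14, H3C8, H4C1 and H4C8 208181_at). Members that pass through 1 group had to differ in that direction, so the counts among tested members support nothing by themselves.

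The 8 probe sets above the array median on all 4 arrays, called bright here, belonged to 6 genes. Genes of H2B among them were H2BC12, H2BC5 and H2BC6. H2BC12 probe set 209806_at measured 1851 and 1847 units with DMSO and 2065 and 2135 with pentamidine, both higher (log2 fold change 0.18, 95% interval -0.22 to 0.58). The other H2BC12 probe set, 208579_x_at, measured 554 and 744 with DMSO and 769 and 767 with pentamidine, also without overlap (0.25, -0.30 to 0.80). Both probe sets of this H2B gene thus lay above DMSO without overlap, which 19.5% of all tested probe sets did. The second rested on a low DMSO array 1 and carries the suffix x_at of shared probes, so no agreement is read from the 2. H2BC5 probe set 209911_x_at measured 481 and 495 against 538 and 475, and 222067_x_at 189 and 260 against 196 and 452, both with overlap (0.049 and 0.40). H2BC6 (208527_x_at) measured 135 and 89.3 with DMSO and 162 and 155 with pentamidine, both higher (0.47, -0.16 to 1.09). Its log2 fold change was 0.73 without DMSO array 1 and 0.21 without DMSO array 2. H4C3, an H4 gene, measured 710 and 1208 with DMSO and 1354 and 1191 with pentamidine, where DMSO array 1 was low and the groups overlapped (0.45, -0.36 to 1.26). H2AC6 measured 208 and 244 against 235 and 274 (0.16), and linker histone gene H1-2 116 and 189 against 147 and 122.8 (-0.13). Over these 8, 7 lay above DMSO; the median log2 fold change was 0.22 and the limma adjusted p at least 0.930.

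The dim replication-dependent probe sets gave the largest log2 fold changes. H4C4, another H4 gene, measured 2.29 and 7.87 units with DMSO and 60.4 and 29.2 with pentamidine, and both pentamidine arrays were higher. Its log2 fold change of 1.49 (95% interval 0.62 to 2.36, unadjusted p = 0.0080, limma adjusted p = 0.930) was 2.99 with an offset of 1 in place of 16 and 0.37 with a larger offset, 8 times the main one. The size of such a difference is thus set by the offset, and the probe set was kept only because of the pentamidine arrays. H2BC21, an H2B gene of the chromosome 1 cluster, measured 32.9 and 44.2 with DMSO and 84.9 and 65.2 with pentamidine, without overlap. Its log2 fold change was 0.74 (95% interval 0.18 to 1.30, unadjusted p = 0.0207, limma adjusted p = 0.930), and with a variance trend the interval was -0.081 to 1.56.

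H3C4, an H3 gene, had 2 tested probe sets that differed. Probe set 214522_x_at measured 33.2 and 33.0 units with DMSO and 51.4 and 47.7 with pentamidine, both higher (log2 fold change 0.42, 95% interval 0.012 to 0.82). Probe set 214472_at measured 16.9 and 46.8 against 30.2 and 25.4, with overlap (-0.057). H1-4, a linker histone gene, measured 10.2 and 18.0 with DMSO and 52.0 and 23.96 with pentamidine, both higher (0.81, -0.069 to 1.68). Groups without overlap below DMSO were found for H2AC14, H4C1 and H4C8. H2AC14 measured 30.6 and 31.7 with DMSO and 13.3 and 27.9 with pentamidine (-0.39, -1.06 to 0.27). H4C1 measured 28.3 and 25.3 with DMSO and 11.7 and 20.6 with pentamidine (-0.43, -0.98 to 0.12). H4C8 lay below in both of its probe sets, at 66.8 and 49.6 against 32.0 and 45.7 (208180_s_at, -0.44) and at 31.0 and 18.3 against 17.4 and 17.2 (208181_at, -0.27). Both H4 genes were low in each group, and none of these 4 probe sets passed.

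By family, the tested replication-dependent probe sets lay above DMSO in 9 of 11 for H2B, 3 of 4 for H2A, 2 of 4 for H3, 3 of 6 for H4 and 1 of 2 for H1. Their median log2 fold changes were 0.34, 0.34, 0.058, -0.0069 and 0.34. Without a filter, 11 of 17, 6 of 11, 7 of 10, 7 of 11 and 4 of 6 lay above DMSO. The medians were then 0.25, 0.060, 0.25, 0.26 and 0.15 in the same order. The difference between families thus depended on the filter, and none is read from it. H2B probe sets carry 5 of the 8 bright ones, and 9 of the 17 H2B probe sets end in x_at or s_at, a mark that probes may be shared with other transcripts; which ones was not examined here. Over genes, each taken at its brightest tested probe set, 16 of 23 replication-dependent genes lay above DMSO with a median of 0.26, and 2 of 5 variant genes with a median of -0.024, beside 4644 of 9136 genes of all kinds with a median of 0.0044. Without any filter, 35 of 55 replication-dependent probe sets lay above DMSO (median 0.17), beside 55.2% of all probe sets.

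Level moved with this result. Over all tested probe sets with a mean under the table median the median log2 fold change was 0.13 and 61.1% lay above DMSO, and at or over it 0.0064 and 51.4%. The replication-dependent probe sets had 0.34 (11 of 17 above) and 0.17 (7 of 10 above) in the same parts. Quantile normalization took the gene median of the replication-dependent class from 0.26 to 0.20, median centring to 0.16 and the 50th percentile filter to 0.10, and the part of level in the result was not tested. Median centring moved the median of all tested probe sets from 0.026 to -0.071.

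**Figure D3:**
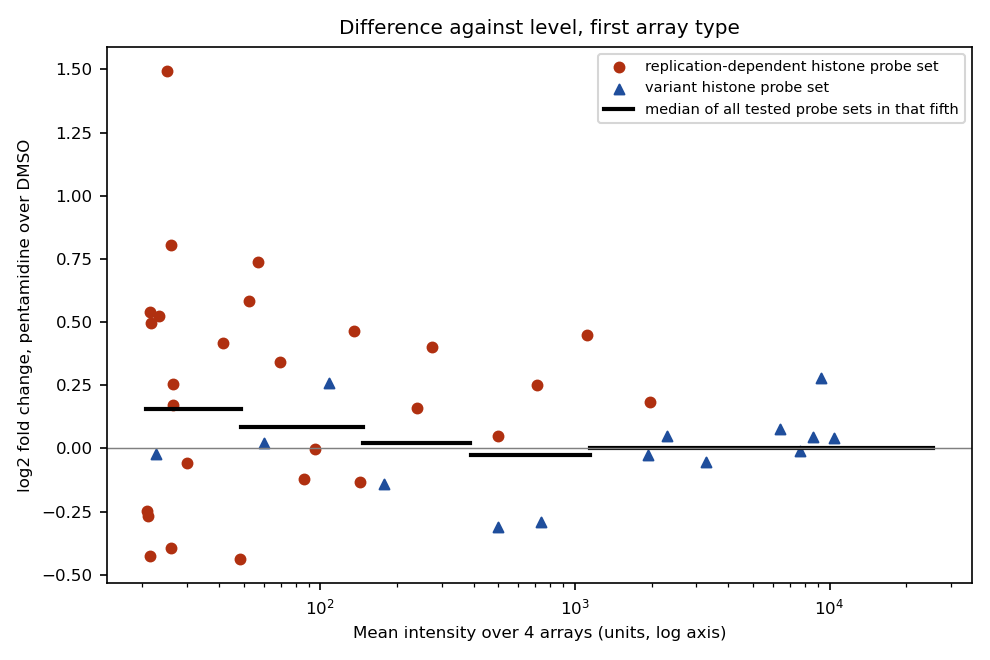
Log2 fold change of pentamidine over DMSO (y axis) against mean intensity over 4 arrays (units, log axis) for the 41 tested histone probe sets of the first array type (red circles, replication-dependent; blue triangles, variant). Black bars are the median of all tested probe sets in each of 5 level groups of equal size, which goes from 0.16 in the dimmest to 0.0014 in the brightest; the replication-dependent points spread on both sides of the bars at low level.

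The 28 probe sets left out, all replication-dependent, ranged from 0.764 to 69.3 units on single arrays. The highest was H3C12 on pentamidine array 1, at 69.3, while its other arrays were at 1.79, 8.62 and 1.41. H3C7, H3C10 and H3C11 were likewise highest on pentamidine array 1, at 41.5, 48.5 and 32.5, and at 2.33, 3.25 and 2.14 on pentamidine array 2. These H3 genes, picked after their values were seen, were high on that 1 array only. H2AC25, an H2A gene of the other chromosome 1 cluster, measured 30.3 and 33.2 with DMSO and 12.4 and 6.48 with pentamidine, both lower. It was left out by the filter on mean intensity. The filter on mean log2 value kept it with a log2 fold change of -0.92 (95% interval -1.42 to -0.41, limma unadjusted p = 0.0064, adjusted p = 0.926).

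Neighbours that share a promoter window were compared where both were tested. H2BC11 and H2AC11 face each other over 253 shared bases. H2BC11 measured 20.9 and 8.05 units with DMSO and 38.8 and 18.2 with pentamidine (log2 fold change 0.54), and H2AC11 20.3 and 55.6 against 101 and 34.1 (0.58). Both lay above DMSO, with overlapping groups. H2BC11 passed the filter through the pentamidine mean alone, so its direction was fixed by the filter and no agreement is read from this pair. For H2AC11, pentamidine array 2 (34.1) lay below DMSO array 2 (55.6). H3C4 and H2BC7 share 278 bases; H3C4 had 0.42 and -0.057 in its 2 probe sets, and H2BC7 measured 108 and 78.7 against 62.6 and 132 (-0.0025).

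The second comparison put the question to the second array type, which held 6 replication-dependent and 6 variant probe sets. Again none passed: of 8 tested, 0 were called, as over all 15804 (0%), with limma adjusted p values from 0.544 to 0.999. Of the 8, 7 lay above DMSO, and 4 had groups that did not overlap, all above, against 17.7% of all probe sets; 1 reached an unadjusted p under 0.05, above DMSO, against 4.02% of all above and 7.01% in either direction, and 0, 3 and 2 did without DMSO array 1, pentamidine array 1 and pentamidine array 2, beside 6.69%, 8.0% and 9.53% of all. Of the 4 without overlap, H2AC15 and H1-10 passed the filter through the pentamidine mean alone, and of the 4 members left out 2 lay above and 2 below DMSO without overlap, so nothing is read from that count. H2AZ2 was the only one above the array median on all 4 arrays, and the intervals of the others were wide.

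H2AC15, an H2A gene, measured 29.8 and 21.4 units with DMSO and 305 and 103 with pentamidine, and both pentamidine arrays were higher. Its log2 fold change was 2.24 (95% interval 0.48 to 4.01, limma adjusted p = 0.544), 1.04 with the larger offset, and the interval was -0.37 to 4.85 with a variance trend. It passed the filter through the pentamidine arrays alone. On the first array type another H2AC15 probe set, under the filter, measured 5.99 and 6.05 with DMSO and 33.0 and 15.6 with pentamidine, both higher. Given how the tested probe set passed and how dim the other was, no agreement is read from their direction. For H4C2, a first-type probe set under the filter measured 2.33 and 2.80 with DMSO and 6.33 and 1.18 with pentamidine, which overlapped.

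H2BC4 measured 60.9 and 134 units with DMSO and 165 and 218 with pentamidine, both higher (log2 fold change 0.94, 95% interval -0.45 to 2.32). H4C2 probe set 234960_at measured 66.8 and 114 against 209 and 153, both higher (0.91, -0.26 to 2.08). Its other probe set, 232035_at, measured 64.6 and 253 against 222 and 205 (0.64, -1.40 to 2.68), with overlap from DMSO array 2, which was above both. H2AC25 measured 96.5 and 86.0 against 22.9 and 114 (-0.59, -2.63 to 1.45), where pentamidine array 1 alone was low; it passed the filter through the DMSO mean alone. H2BC1, a testis H2B gene, was left out at 5.83 and 7.50 against 14.002 and 8.18.

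Among the variants of the second array type, H1-10 measured 21.6 and 42.7 units with DMSO and 43.9 and 235 with pentamidine. Both pentamidine arrays were higher, the first by little (log2 fold change 1.38, 95% interval -1.08 to 3.85), and the probe set passed the filter through them alone, while on the first array type its probe set gave -0.14. H1-7, a linker histone gene known from testis, measured 36.5 and 144 against 191 and 111 (238373_at, 0.82, -1.23 to 2.87), and 0.021 without DMSO array 1, 0.47 without pentamidine array 1 and 1.63 without DMSO array 2. Its 2 other probe sets were left out, at 53.8 and 175 against 15.6 and 33.7 (236876_at) and at 33.8 and 17.9 against 45.8 and 197 (238374_at), so the 3 did not point one way. The pseudogene H1-9P, also left out, measured 110 and 126 with DMSO and 20.9 and 14.3 with pentamidine, both lower.

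On this array type DMSO array 1 was the lower DMSO array for 6 of the 8 tested probe sets. The ratio of the 3′ to the 5′ control probe set, a measure of RNA quality, was also lower in pentamidine: 1.47 and 1.27 with DMSO against 1.23 and 1.21 for ACTB, and 0.843 and 0.806 against 0.716 and 0.677 for GAPDH. On the first type the same ratios overlapped. The part of RNA quality in the values was not tested. Over genes, 3 of 4 replication-dependent genes lay above DMSO with a median of 0.79 and 3 of 3 variant genes with a median of 0.82, beside 3474 of 6999 genes of all kinds with a median of -0.0030. Without a filter 9 of 12 members lay above DMSO and the gene medians were 0.64 and 0.44, and with the larger offset 0.42 and 0.39. These medians rested on single arrays: without DMSO array 2 they were 1.46 and 1.63, and the variant median was 0.021 without DMSO array 1, 0.29 without pentamidine array 1 and -0.0066 without pentamidine array 2.

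**Figure D4:**
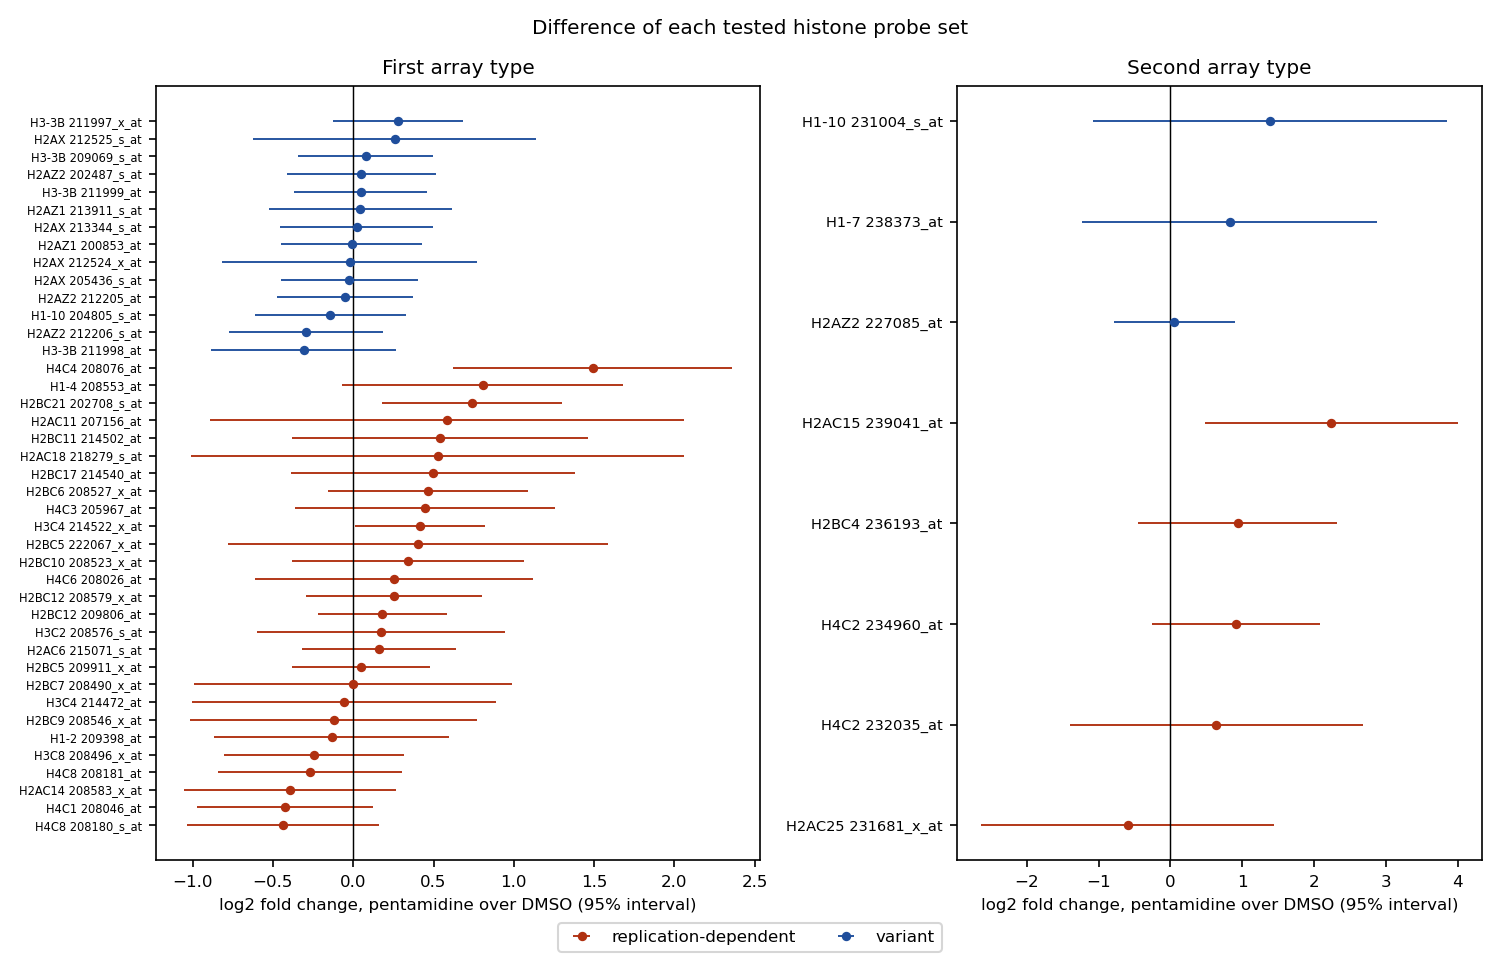
Log2 fold change of pentamidine over DMSO (x axis) with its 95% interval from limma for each tested histone probe set, 41 on the first array type and 8 on the second (blue, variant; red, replication-dependent; n = 2 arrays per group). All but 4 intervals (H4C4, H2BC21, H3C4 214522_x_at and H2AC15) include 0, and none of the 49 passed the adjusted threshold.

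The genes that make, process and deposit histones were read beside them, each at its brightest tested probe set. Of 13 tested genes of histone mRNA transcription and processing, 0 passed on the first array type; 8 lay above and 5 below DMSO (median 0.074). SLBP, which binds the histone stem-loop, measured 4003 and 3987 units with DMSO and 3107 and 3356 with pentamidine, both lower (log2 fold change -0.31, 95% interval -0.72 to 0.10, limma adjusted p = 0.930). ZNF473, a zinc finger protein of the 3′ processing complex, had -0.39, LSM1, of the ring that promotes mRNA decay, -0.30, and SYMPK, the scaffold of the cleavage complex, 0.44. Of 24 histone chaperone and assembly genes 0 passed, with 14 above and 10 below (median 0.056). IPO4, an importin that carries histones, measured 222 and 217 with DMSO and 173 and 125 with pentamidine, both lower (-0.53, -1.09 to 0.022). DAXX, a chaperone of H3-3, had 0.39, RBBP4, a subunit of the CAF-1 complex, 0.38, and TONSL, which binds new H4 at forks, 0.44. For RBBP4, DMSO array 1 was low (1916, against 2855 on DMSO array 2), and on the second array type it had -0.23 with overlapping groups.

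S-phase genes, which share their time of expression with the replication-dependent histones, lay above DMSO in 7 of 21 and below in 14 (median -0.041), with 0 passing. E2F1, a transcription factor of S-phase entry, measured 73.6 and 95.2 units with DMSO and 114 and 114 with pentamidine, both higher (log2 fold change 0.38, 95% interval -0.11 to 0.87). The replicative helicase subunit gene MCM5 had -0.22, the flap nuclease gene FEN1 -0.21 and ORC1, of the origin recognition complex, 0.20. On the second array type 0 of 8 processing genes, 0 of 7 chaperone genes and 0 of 3 S-phase genes passed, with medians of 0.15, 0.15 and -0.20. CPSF3, the endonuclease that cuts histone pre-mRNA, measured 4644 and 3895 with DMSO and 2837 and 3690 with pentamidine there, both lower (-0.39, -1.36 to 0.57).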

How the data were processed

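Intensity values, 1 per probe set and array, were deposited by the authors; Affymetrix Expression Console is named per the submitters' processing notes, and the method within it is not given in the sources used here. The mean of each array after trimming 2% at each end was close to 500.2 (first type) or 500.1 (second), so the arrays had been scaled to one target. Values were not normalized again. Control probe sets (62 and 88) were left out, an offset of 16 was added and log2 taken. Probe sets with a mean intensity at or over the 30th percentile (20.8 and 76.8 units) were tested, 15550 and 15804. Each array type was fitted apart in R 4.3.3 by limma 3.58.1 (lmFit, then eBayes), pentamidine against DMSO, 2 arrays per group, with Benjamini-Hochberg adjustment over all tested probe sets and a threshold of 0.05. The fits were tested on simulated data with changes planted only in probe sets above the median level. The recovery of changes in dim probe sets, where most replication-dependent members lie, was therefore not tested. Tables and figures were made with Python 3.11.15, pandas 2.3.3 and matplotlib 3.10.9.

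Symbols came from the platform annotation, and those of all members are current RefSeq symbols. Probe sets that list 1 symbol numbered 19730 and 13588; no gene was named from one that lists several. The members and the gene lists were chosen with earlier results of these data known. Named were all tested variant probe sets, the 6 replication-dependent ones with the largest absolute t on each type, all probe sets of genes tested on both types or with 3 or more on one, and up to 4 genes per companion list; further members are given by level. Replicate numbers are shared between groups, but the labels name no block, so the numbers were not taken as pairs. Deviations of same-numbered arrays had a correlation of 0.0049 and 0.014 over all tested probe sets. Such a correlation cannot exclude an effect of the replicate on some genes. Alternatives were offsets of 1 and of 8 times the main one, filters, scalings, a variance trend, a replicate block, other probe set rules and leaving out each array. The labels name biological duplicates without saying how the cultures were separated, so p values measure the spread between these arrays.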

Additional observations from a re-analysis of the deposited data

Results flagged for a closer look

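Histone probe sets that list several symbols were outside the comparisons because no single gene can be named from them, and on the first array type 2 of them had both pentamidine arrays above both DMSO arrays. Probe set 211940_x_at, annotated to H3P16, H3P6 and H3-3A, measured 7450 and 7493 intensity units with DMSO and 8244 and 7924 with pentamidine, a ratio of means of 1.082 (limma adjusted p = 0.941). Probe set 213828_x_at measured 8401 and 8549 with DMSO and 10028 and 8936 with pentamidine, a ratio of 1.119 (limma adjusted p = 0.933). Such a separation above DMSO was found for 19.5% of all tested probe sets, and neither passed the threshold.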

How the results depend on the processing

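No histone probe set passed an adjusted p of 0.05 under any alternative run, on either array type; the lowest adjusted p of a named probe set was 0.431. Over all probe sets, the count called was 25 on the first type under the replicate block with a variance trend, and on the second 2 with a variance trend and 8 with the replicate block and a variance trend, none a histone. The plain replicate block called 0 on both types and left all 28 named probe sets on the same side of the threshold. On the first type, 3 histone probe sets had an unadjusted p under 0.05; the count was 1 with the larger offset, 5 without a filter, 0 with the 50th percentile filter, 1 without x_at and s_at probe sets, and 2 to 7 with 1 array left out; of all probe sets 4.84% had one as reported, and 4.91%, 5.49%, 4.4%, 5.07% and 3.93% to 8.37% in these. On the second type it was 1, against 2 without a filter, 0 with the 50th percentile filter, 0 with a variance trend, 0 with the replicate block and a variance trend, and 0 to 3 with 1 array left out; of all it was 7.01%, against 7.01%, 4.95%, 4.95%, 5.45% and 6.69% to 9.53%.

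The median log2 fold change of the replication-dependent genes on the first type, 0.26, was 0.41 and 0.11 with offsets of 1 and the larger one, 0.18 without a filter, 0.10 with the 50th percentile filter, 0.20 after quantile normalization, 0.16 after median centring, 0.35 without x_at and s_at probe sets, 0.23 as a median over each gene's probe sets, 0.22 with H2AX included, and 0.21 to 0.27 with 1 array left out. The variant median, -0.024, was -0.12 after median centring and -0.10 to 0.028 with 1 array left out. On the second type the replication-dependent median was 0.45 to 1.46 and the variant median -0.0066 to 1.63 with 1 array left out, the latter 0.053 with the 50th percentile filter; with the larger offset they were 0.42 and 0.39. The filter was run again in each fit with 1 array left out, so the genes behind these medians could differ. Causes were not tested.

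Of 413 values of named probe sets under alternatives, 388 kept their direction and 25, in 13 probe sets, changed sign. After median centring, which moved the median of all tested probe sets to -0.071 and -0.088, these were H2AZ2 202487_s_at (-0.049), H3-3B 209069_s_at (-0.019), H3-3B 211999_at (-0.052), H2AX 213344_s_at (-0.077), H2AZ1 213911_s_at (-0.055) and H2AZ2 227085_at (-0.057). After quantile normalization they were H2AX 205436_s_at (0.0051), H2AX 213344_s_at (-0.12) and H2AZ1 213911_s_at (-0.023), and with the larger offset H2AX 212524_x_at (0.0037). With 1 array left out, H2AZ1 200853_at ranged from -0.11 to 0.088, H2AZ1 213911_s_at from -0.18 to 0.27, H2AZ2 202487_s_at from -0.047 to 0.14, H2AZ2 212205_at from -0.13 to 0.025, H2AX 205436_s_at from -0.088 to 0.040, H2AX 212524_x_at from -0.027 to 0.36, H2AX 212525_s_at from -0.17 to 0.69 and H2AX 213344_s_at from -0.11 to 0.15. On the second type the ranges were -0.0066 to 0.11 for H2AZ2 227085_at, -0.23 to 1.51 for H4C2 232035_at and -0.66 to 0.27 for H2AC25 231681_x_at. Other named probe sets kept their sign but moved: H1-7 238373_at ranged from 0.021 to 1.63, H2BC4 from 0.45 to 1.42, H1-10 231004_s_at from 1.06 to 2.42, H4C2 234960_at from 0.58 to 1.24, H1-4 from 0.62 to 1.19, H2BC6 from 0.21 to 0.73, H4C1 from -0.63 to -0.22, H2AZ2 212206_s_at from -0.41 to -0.17 and H3-3B 211998_at from -0.53 to -0.091. In 35 combinations a named probe set gave no value, 20 under the filter and 15 left out by suffix.

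Signal over background limits the replication-dependent class, of which 43 of 55 probe sets on the first type lay above the array median on no array. With 2 arrays per group, intervals are wide and no exact permutation test can pass. Which probes are shared between histone genes was not examined. Poly(A) priming was taken from background knowledge of the array type.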

Other observations

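Of the other 9 histone probe sets with several symbols, 8 overlapped between groups. The exception was 214463_x_at, annotated to H4C11 and H4C12, with 37.7 and 41.3 intensity units with DMSO and 37.2 and 34.0 with pentamidine, both lower (log2 fold change -0.11, limma adjusted p = 0.944). On the first array type 208755_x_at measured 8277 and 8818 intensity units with DMSO and 10607 and 8693 with pentamidine, and 200080_s_at 8709 and 8763 against 8433 and 9363. Probe set 214290_s_at, annotated to H2AC19 and H2AC18, measured 217 and 428 with DMSO and 456 and 341 with pentamidine, where DMSO array 1 was low. On the second array type 200080_s_at measured 36119 and 37723 against 38015 and 34419.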
